A study of Mus musculus with 24 samples.

Results

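Expression of 5 genes of the neuromuscular junction was followed in the tibialis anterior muscle of HiraCKO and control mice: Lrp4, Ache, Chrna1, Chrng and Ncam1. They were taken as every probe row annotated with 1 of these symbols, which gave 5 rows of 26423, 1 row per gene, and 5 of 17742 genes. The genes had been picked from measured values of this same HiraCKO and control comparison, so their group differences are described below without a test. The 4 HiraCKO mice carried Myf6 cre/+; Hira flox/- and the 4 control mice Myf6 cre/+; Hira flox/+, in the strain mix C57BL6/J;129S1/SvImJ, and all were 6 months old. The Cre recombinase comes from the Myf6 locus, a muscle transcription factor gene active in differentiated fibres, and both groups carry it, so control fibres keep 1 intact copy of Hira by genotype. The knockout's minus allele is a germline genotype and is not limited to fibres. Hira encodes a chaperone that deposits the histone variant H3.3. RNA of each animal was hybridised 3 times (24 arrays), and the deposited values are linear probe intensities.

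At the junction, agrin released by the motor nerve binds LRP4 on the fibre, which activates the kinase MuSK and gathers acetylcholine receptors under the nerve ending. The muscle receptor is built of alpha subunits (Chrna1) with beta, delta and either gamma (Chrng, the fetal form) or epsilon (Chrne, the adult form). Acetylcholinesterase (Ache) ends transmission by splitting acetylcholine. The neural cell adhesion molecule (Ncam1) is held at junctions in adult fibres and, as textbook knowledge has it, spreads over the fibre after denervation, when Chrna1 and Chrng transcription also returns outside the junction.

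Promoter windows of 250 bases upstream of the annotated start were read from RefSeq (GRCm38.p6) for the 3 of 5 genes with an entry, to set beside the opposite group differences of both receptor subunits and the difference of Ache. The Chrna1 window is chr2:73580339-73580588 on the minus strand, that of Chrng is chr1:87205561-87205810 on the plus strand and that of Ache is chr5:137288004-137288253 on the plus strand. Each is printed 5′ to 3′ on the gene's strand, and capitals mark E-boxes (CANNTG). These are a family of sites bound by helix-loop-helix factors, the myogenic ones among them. Which factor binds a marked site was not tested.
Chrna1: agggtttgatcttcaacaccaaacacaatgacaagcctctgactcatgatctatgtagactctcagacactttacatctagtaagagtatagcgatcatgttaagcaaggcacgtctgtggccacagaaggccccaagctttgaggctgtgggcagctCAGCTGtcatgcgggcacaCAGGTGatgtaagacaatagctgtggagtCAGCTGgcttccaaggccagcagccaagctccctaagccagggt
Chrng: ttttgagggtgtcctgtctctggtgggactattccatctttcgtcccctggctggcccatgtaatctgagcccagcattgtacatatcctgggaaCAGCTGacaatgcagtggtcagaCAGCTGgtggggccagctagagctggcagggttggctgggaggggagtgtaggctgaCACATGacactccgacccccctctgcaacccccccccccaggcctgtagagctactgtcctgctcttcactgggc
Ache: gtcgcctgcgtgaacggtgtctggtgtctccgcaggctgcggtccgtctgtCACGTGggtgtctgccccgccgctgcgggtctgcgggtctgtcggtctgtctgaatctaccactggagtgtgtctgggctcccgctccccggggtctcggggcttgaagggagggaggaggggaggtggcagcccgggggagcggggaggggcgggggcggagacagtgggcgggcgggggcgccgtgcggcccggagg
The Chrna1 window held 3 E-boxes, of which 2 read CAGCTG and began 92 and 44 bases before the start, and the other read CAGGTG. The Chrng window also held 3, with CAGCTG at 155 and 132 bases before the start and CACATG nearer to it. The Ache window, with a GC content of 73.6%, held 1, CACGTG. E-boxes are common: 66.2% of 32851 RefSeq windows of this length held at least 1, and 13% held CAGCTG. The N-box (CCGGAA on either strand, the motif linked to synapse-restricted transcription) was in none of these 3 windows and in 12% of all windows. Among the other muscle subunits with an entry, Chrnb1 had 3 E-boxes and no CAGCTG, and Chrne had 1 CAGCTG and 1 N-box. The CAGCTG motif was in the windows of both Chrna1 and Chrng. Whether any of these motifs has a part in the group differences was not tested.

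Lrp4, the agrin receptor, was brighter in HiraCKO muscle. Its intensity was 1795, 2117, 1733 and 1728 in HiraCKO animals 1 to 4, against 886.8, 1029, 645.7 and 729.1 in control animals 1 to 4. The groups did not overlap, and each of the 12 HiraCKO arrays lay above all 12 control arrays. The difference of log2 means was 1.18 ± 0.16 (SE, n = 4 animals per group), a 2.27-fold higher level in HiraCKO. Control animals spread more (SD 0.30, log2) than HiraCKO animals (SD 0.14), with control animals 3 and 4 below control animals 1 and 2. The SD between hybridisations of an animal was 0.16. Even the dimmer group's level of Lrp4 was 6.5-fold above 125, the highest 5th percentile of any array and the level taken here as dim.

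Chrna1, the acetylcholine-binding alpha subunit of the muscle receptor, was also brighter. HiraCKO animals had intensities of 1720, 1828, 1725 and 1936, and control animals had 1049, 1282, 1190 and 1121. All HiraCKO animals exceeded all control animals, and the same held for the single arrays. The log2 difference was 0.64 ± 0.11 (SE, n = 4 per group; 1.56-fold), with the narrowest spread of animals among the 5 genes in the pooled SD (0.10). Within HiraCKO, animal 4 stood highest, and within control, animal 2 did.

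Chrng, the fetal gamma subunit, was dimmer in HiraCKO. Intensities were 876.7, 915.4, 861.8 and 731.9 in HiraCKO animals and 1733, 1064, 1375 and 1267 in control animals. The animal means did not overlap, although the gap was 0.22 (log2) and 9 of 12 HiraCKO arrays lay below every control array. The difference was -0.67 ± 0.15 (SE, n = 4 per group), 1.59-fold lower in HiraCKO. Hybridisations of an animal differed with an SD of 0.35 for this gene, more than the pooled SD of 0.23 between animals, and control animal 1 was the brightest.

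Ache, which encodes acetylcholinesterase, was brighter in HiraCKO. Its intensity was 11030, 11760, 12190 and 11610 in HiraCKO animals, against 4653, 6152, 7116 and 5496 in control animals. No HiraCKO array was as low as the brightest control array (9337 as the lowest HiraCKO array, 7355 as the highest control array). The log2 difference was 1.01 ± 0.14 (SE, n = 4 per group; 2.01-fold). HiraCKO animals lay close together (SD 0.06, log2), while control animals spread with an SD of 0.26.

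Ncam1 did not separate the groups. Intensities were 765.7, 1545, 892.3 and 1004 in HiraCKO animals and 1019, 885.5, 1070 and 806.6 in control animals. The groups overlapped, with HiraCKO animals holding both the highest and the lowest value, and the log2 difference was 0.11 ± 0.20 (SE, n = 4 per group). HiraCKO animals spread with an SD of 0.43, against 0.19 in control animals. Most of that spread lies in HiraCKO animals 1 and 2. The 3 hybridisations of HiraCKO animal 1 gave 457.7, 824.4 and 1189, a range of 1.38 (log2), whereas those of HiraCKO animal 2 gave 1827, 1346 and 1500. Without HiraCKO animal 2 the difference turned to -0.09 (log2), so its sign rests on that animal.

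The animals of the groups thus did not overlap in 4 of these 5 genes, beside 17.5% of all genes; the 5 were chosen on this contrast, so nothing is read from that count. Muscle was measured whole, so a change in the number of cells of a type and a change in RNA per cell cannot be told apart in these values.

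**Figure D1:**
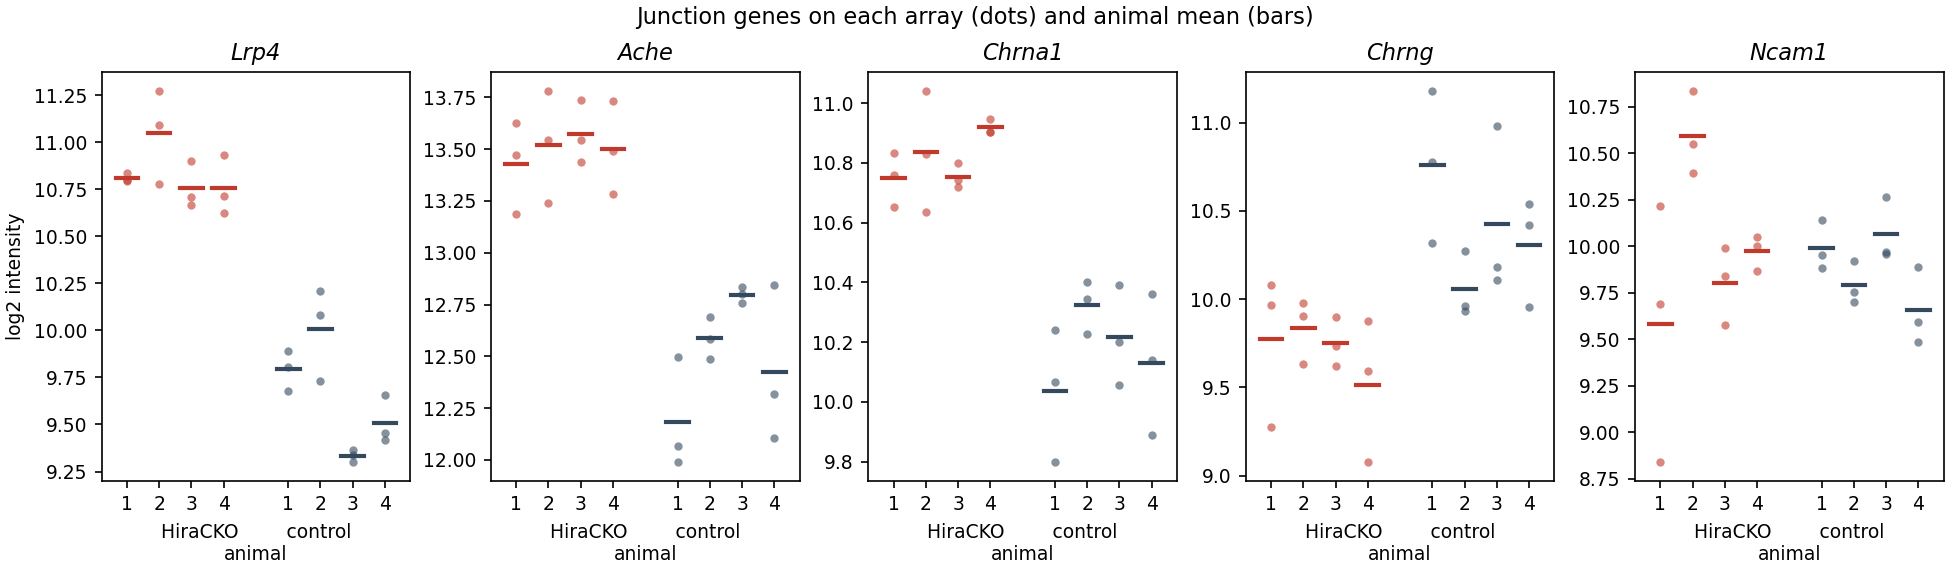
Log2 intensity of each junction gene on each of the 24 arrays (dots) and its animal mean (bars), HiraCKO animals left of control animals. Lrp4, Ache and Chrna1 are higher in every HiraCKO animal, Chrng is lower, and Ncam1 overlaps, with HiraCKO animal 2 high (1545) and HiraCKO animal 1 low (765.7).

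The animals fall into numbers in the 6400s and in the 6900s, with 2 HiraCKO and 2 control animals in each series; the labels do not say what the numbers mark. This split is balanced over genotype and did not choose the genes, so the interaction, that is the change in the difference between series, could be tested. The pick is not wholly apart from it. A pick that favoured a small spread within groups would also favour small interactions and series differences. The HiraCKO minus control difference of Lrp4 was 1.03 in the 6400s and 1.33 in the 6900s (log2), that of Ache 1.09 and 0.93, and that of Chrna1 0.61 and 0.66. The same difference was -0.60 and -0.73 for Chrng, and 0.20 and 0.03 for Ncam1. For the 4 genes whose groups do not overlap, the sign within a series follows from that and is no separate result. The interaction of genotype with series was 0.31 for Lrp4 (95% interval -0.18 to 0.79; limma adjusted p = 0.512), and its adjusted p was 0.770 for Ache, 0.917 for Chrna1, 0.851 for Chrng and 0.865 for Ncam1. Over all 17742 genes limma called 0 interactions (0% of genes; 2065 at an unadjusted p under 0.05, smallest adjusted p = 0.225). Each cell of this comparison held 2 animals, and the interval of Ncam1 was wide, from -1.19 to 0.85.

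**Figure D2:**
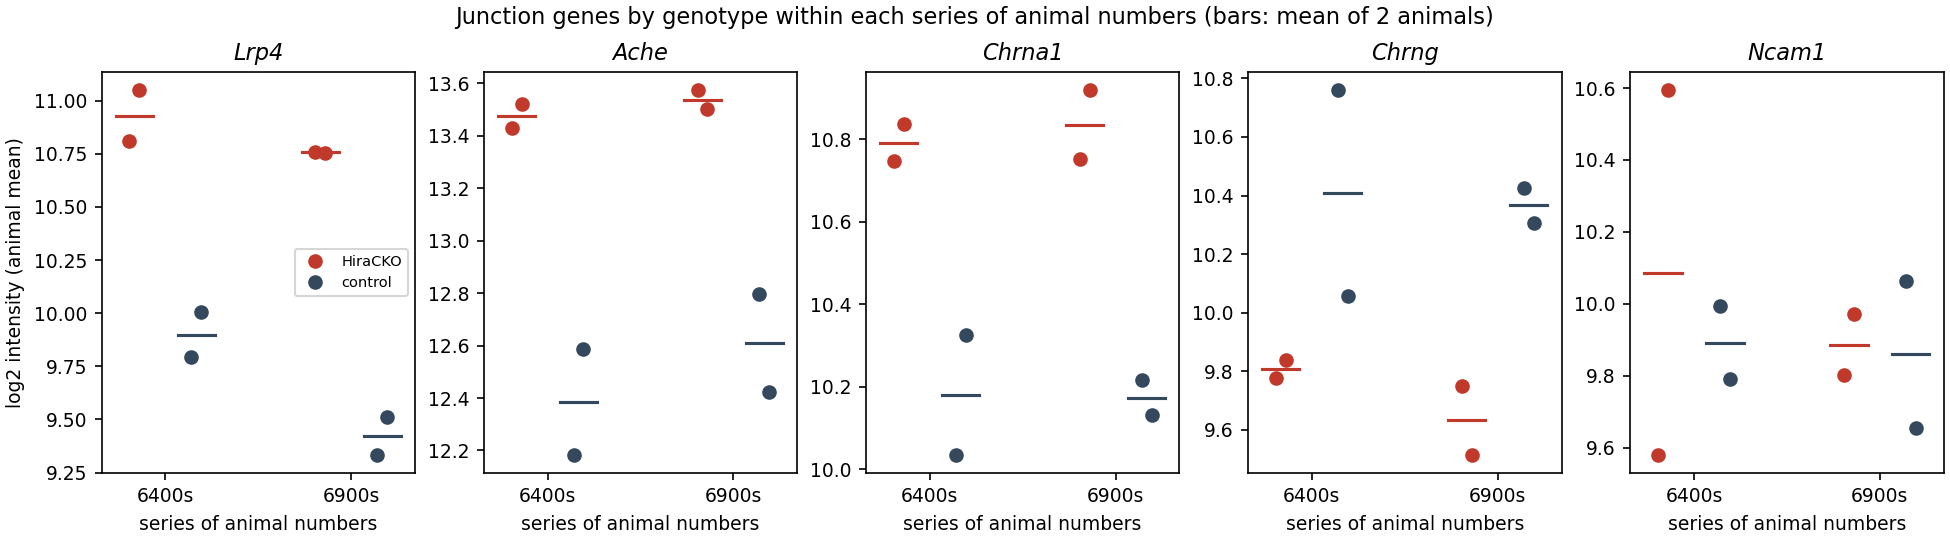
Log2 intensity of animal means by genotype within each series of animal numbers, HiraCKO left of control, with bars at the mean of 2 animals. The HiraCKO minus control difference of Lrp4 is 1.03 in the 6400s and 1.33 in the 6900s, and its level is lower in the 6900s in both genotypes (1733 and 1728 in HiraCKO, 645.7 and 729.1 in control).

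Of the 5 genes, Lrp4 had the largest difference between the series themselves. Its level in the 6900s minus that in the 6400s was -0.32 ± 0.12 (SE, log2, 4 animals each), with an unadjusted p of 0.0222 and a limma adjusted p of 0.423. For the other 4 genes the series difference lay between -0.12 and 0.14, with adjusted p from 0.566 to 0.934. No gene of the whole array passed for the series either (0% of genes; 2077 at an unadjusted p under 0.05 in limma, smallest adjusted p = 0.154).

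Deviations of animals from their group mean were compared for the 10 pairs of the 5 genes, over 8 animals, with exact permutation within groups (576 arrangements, two-sided). Chrna1 and Chrng had the largest coefficient, a negative one: Pearson r = -0.842 (p = 0.0365, exact permutation; adjusted p = 0.365 over 10 pairs) and Spearman rho = -0.738 (p = 0.0729). Without control animals 1 and 2, the farthest from the median of Chrna1, r was -0.484, so the relation rests on those 2 animals. Some other coefficients also moved much when the 2 farthest animals were left out. Without control animals 2 and 3, r of Lrp4 with Ncam1 was 0.819, against 0.241 with all animals, and that of Lrp4 with Chrng 0.73, against -0.089. Others moved little, such as Lrp4 with Ache (-0.331, against -0.368) and, without control animals 1 and 2, Chrng with Ncam1 (0.338, against 0.311). Ache and Chrna1 gave r = 0.628 (exact permutation p = 0.231). No pair passed after adjustment. Within the series, 4 animals are too few for a correlation.

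The genes whose levels followed each junction gene most closely over the 8 animals, after subtracting group means, were found among 14238 genes above the dim level. They were Fxr2 (r = 0.994) and Rrn3 (0.993) for Lrp4, Ptprn (0.977) and Olfr109 (0.968) for Ache, and Mnt (0.975) and Wwox (0.965) for Chrna1. For Chrng they were Lancl2 (0.968) and Vps39 (0.960), and for Ncam1 Amhr2 (0.978) and Klhdc4 (0.975). These are the highest of 14238 correlations per gene over 8 points that share arrays and scaling, and are given as a description. Of these 10 genes Amhr2 alone passed the test between the groups, with 1.55 ± 0.15 (SE, log2; limma adjusted p = 0.00015).

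The rest of the neuromuscular pathway was read from 10 gene lists, in which 115 of 125 genes were measured besides the 5. Of these, 10 were higher and 7 lower in HiraCKO at a limma adjusted p under 0.05, beside 4.28% of all genes higher and 5.01% lower. At an unadjusted p under 0.05 in limma there were 37 of the 115 genes, beside 4264 of all 17742 genes. The median difference was -0.05 (log2) over the 115 genes and -0.07 over all genes. Under quantile normalization 17 were higher and 7 lower, and under cyclic loess 18 and 7, which moves the share higher from 58.8% to 70.8% and 72%. Calls over all genes were also more under these scalings: 1240 higher and 1329 lower under quantile normalization and 1309 and 1154 under cyclic loess, against 759 and 888.

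None of the direct partners of LRP4 passed the test. In the agrin and MuSK list, of 14 measured genes 0 were higher and 2 lower (4 at an unadjusted p under 0.05). Agrn encodes agrin, the ligand of LRP4, and was read here in muscle RNA, not in motor neuron cell bodies. It differed by 0.06 ± 0.15 (SE, log2, limma adjusted p = 0.822). The kinase Musk differed by -0.15 ± 0.12 (0.447), its activator Dok7 by -0.08 ± 0.16 (0.795) and the receptor anchor Rapsn by -0.35 ± 0.13 (0.130). The 2 that fell were Dvl1, a Dishevelled adaptor reported to bind MuSK, by 0.72 ± 0.13 (adjusted p = 0.00617), and Pdzrn3, a ubiquitin ligase that acts on MuSK, by 0.52 ± 0.13 (adjusted p = 0.0290). The call of Pdzrn3 was lost without control animal 1 or 2 or HiraCKO animal 3 or 4 (adjusted p from 0.0557 to 0.0904). That of Dvl1 held without each animal in turn.

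Among low density lipoprotein receptors and LRP4 ligands, the receptor family to which LRP4 belongs, 2 of 15 measured genes rose and 0 fell. Lrp11 rose by 1.13 ± 0.16 (SE, log2; 2.18-fold; limma adjusted p = 0.00183), with log2 levels of 10.11, 10.67, 10.09 and 10.46 in HiraCKO animals and 9.35, 9.40, 9.15 and 8.92 in control animals. Those groups did not overlap. Lrp8, a reelin receptor, rose by 0.43 ± 0.11 (adjusted p = 0.0307), and its call was lost without control animal 1 or 4 or HiraCKO animal 1, 3 or 4 (0.0536 to 0.109). It was also lost with all arrays and the animal as a random block (0.143, and 0.142 with the hybridisation number as a replicate block).

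None of the 3 other muscle receptor subunits passed in limma, and 0 had an unadjusted p under 0.05. Chrne, the adult epsilon subunit, differed by 0.07 ± 0.12 (SE, log2; limma adjusted p = 0.760) and Chrnd, the delta subunit, by 0.09 ± 0.15 (0.758), with 0.27 on its second row. Chrnb1, the beta subunit, had log2 levels of 13.06, 13.33, 13.12 and 13.12 in HiraCKO animals and 13.41, 12.99, 12.45 and 12.24 in control animals. The groups overlapped, and the difference was 0.39 ± 0.22 (adjusted p = 0.318). Control animals 3 and 4, of the 6900s, were the low ones. Of 11 neuronal type subunits measured, 0 rose and 1 fell, Chrna4 by 0.53 ± 0.13 (adjusted p = 0.0246), a call lost without control animal 1 or 3 or HiraCKO animal 2, 3 or 4 (0.0540 to 0.0664).

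Ache protein is held in place by anchors, and those moved in opposite directions. Of 7 measured cholinesterase and anchor genes besides Ache, Colq rose and Prima1 fell. Colq, the collagen tail that ties the enzyme to the synaptic basal lamina, had log2 levels of 8.98, 8.90, 9.15 and 9.54 in HiraCKO animals and 8.46, 8.40, 8.42 and 8.78 in control animals. All HiraCKO animals lay above all control animals, with a difference of 0.62 ± 0.16 (SE, log2; 1.54-fold; limma adjusted p = 0.0315). The Colq call was lost without control animal 1, 2 or 3 or HiraCKO animal 3 or 4 (adjusted p from 0.0565 to 0.0836). Prima1, the membrane anchor of cholinesterase, ranged from 113.4 to 196.5 in HiraCKO animals and from 256.3 to 416.4 in control animals. It fell by 1.06 ± 0.20 (adjusted p = 0.00791), its groups did not overlap, and its lowest HiraCKO animal was under the dim level of 125. Bche, the related butyrylcholinesterase, differed by -0.19 ± 0.20 (adjusted p = 0.580).

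Synaptic scaffold genes gave 2 rises and 0 falls among 12 measured (3 at an unadjusted p under 0.05 in limma), with a list median of 0.041 (log2). Of those 3, Sntb1 did not pass and was lower, at -0.36 ± 0.13 (SE, log2, limma adjusted p = 0.113). Sntb2, a syntrophin adaptor of the dystrophin complex, rose by 1.08 ± 0.12 (SE, log2; 2.11-fold; limma adjusted p = 0.000354) and the dystrobrevin Dtnb by 0.75 ± 0.16 (1.68-fold; 0.0130). The basal lamina list had no call in 13 measured genes, with Lamb2, the laminin chain enriched at the synapse, at 0.39 ± 0.13 (adjusted p = 0.0831) and Lama4 at -0.31 ± 0.11 (0.101). At an unadjusted p under 0.05 that list held 3 genes, and Lamb2 passed under quantile normalization (adjusted p = 0.00566), cyclic loess (0.00750), the number series as a block (0.0354), an intensity trend with robust variances (0.0457) and the animal as a random block (0.00446, and 0.00650 with the replicate block). Lama4 passed with the animal as a random block (0.0216, and 0.0317 with the replicate block). The neuregulin and synaptic transcription list had no call in 12 (2 at an unadjusted p under 0.05), with Etv5, an ETS factor, at 0.50 ± 0.16 (adjusted p = 0.0825), past the test under quantile normalization (0.0475), cyclic loess (0.0360) and the animal as a random block (0.0122, and 0.0191 with the replicate block), and with Etv1 dim in both groups.

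Genes that respond to denervation moved both ways: of 15 measured, 5 rose and 2 fell (9 at an unadjusted p under 0.05 in limma). The others were Fbxo32 (0.05, log2), Gadd45a (0.02), Bmp4 (-0.002), Runx3 (-0.12), Hdac4 (-0.13), Hdac9 (-0.18), Gdf5 (-0.28) and Dach2 (-0.52). No direction after denervation was set for each gene of the list, so these counts do not measure denervation. Sln, the sarcolipin calcium pump regulator, rose by 1.23 ± 0.15 (SE, log2; 2.35-fold; limma adjusted p = 0.000624), and Fgfbp1, a carrier of fibroblast growth factors, by 0.69 ± 0.10 (1.61-fold; 0.00209). Runx1, a transcription factor induced in denervated fibres, had log2 levels of 9.59, 10.19, 10.44 and 10.43 in HiraCKO animals and 9.36, 9.22, 8.99 and 9.13 in control animals. Those levels did not overlap, the difference was 0.99 ± 0.18 (1.99-fold; adjusted p = 0.00753) and the second row of Runx1 gave 0.89. Cdkn1a (0.50 ± 0.13) and Ampd3 (0.58 ± 0.14) rose too, and both were lost without most single animals (7 of 8 for Cdkn1a, adjusted p from 0.0545 to 0.102; 6 of 8 for Ampd3, from 0.0620 to 0.0772). Trim63, a muscle ubiquitin ligase that rises in atrophy, fell by 0.84 ± 0.16 (adjusted p = 0.00836), as did Pfkfb3, by 0.61 ± 0.13 (0.0135). The neural adhesion list gave 0 rises and 1 fall in 13 measured genes besides Ncam1 (5 at an unadjusted p under 0.05 in limma). Besides Gfra1, those 5 held Nrcam at 0.61, St8sia2 at 0.50, Cdh15 at 0.44 and L1cam at 0.26 (log2), all higher. The median of the list was -0.145. Gfra1 fell by 0.42 ± 0.12 (limma adjusted p = 0.0468). That call was lost without 6 of the 8 animals (control 1, 3 or 4, HiraCKO 1, 2 or 3, adjusted p from 0.0832 to 0.142). The Gfra1 call was lost with the animal as a random block too (0.148, and 0.166 with the replicate block).

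**Figure D3:**
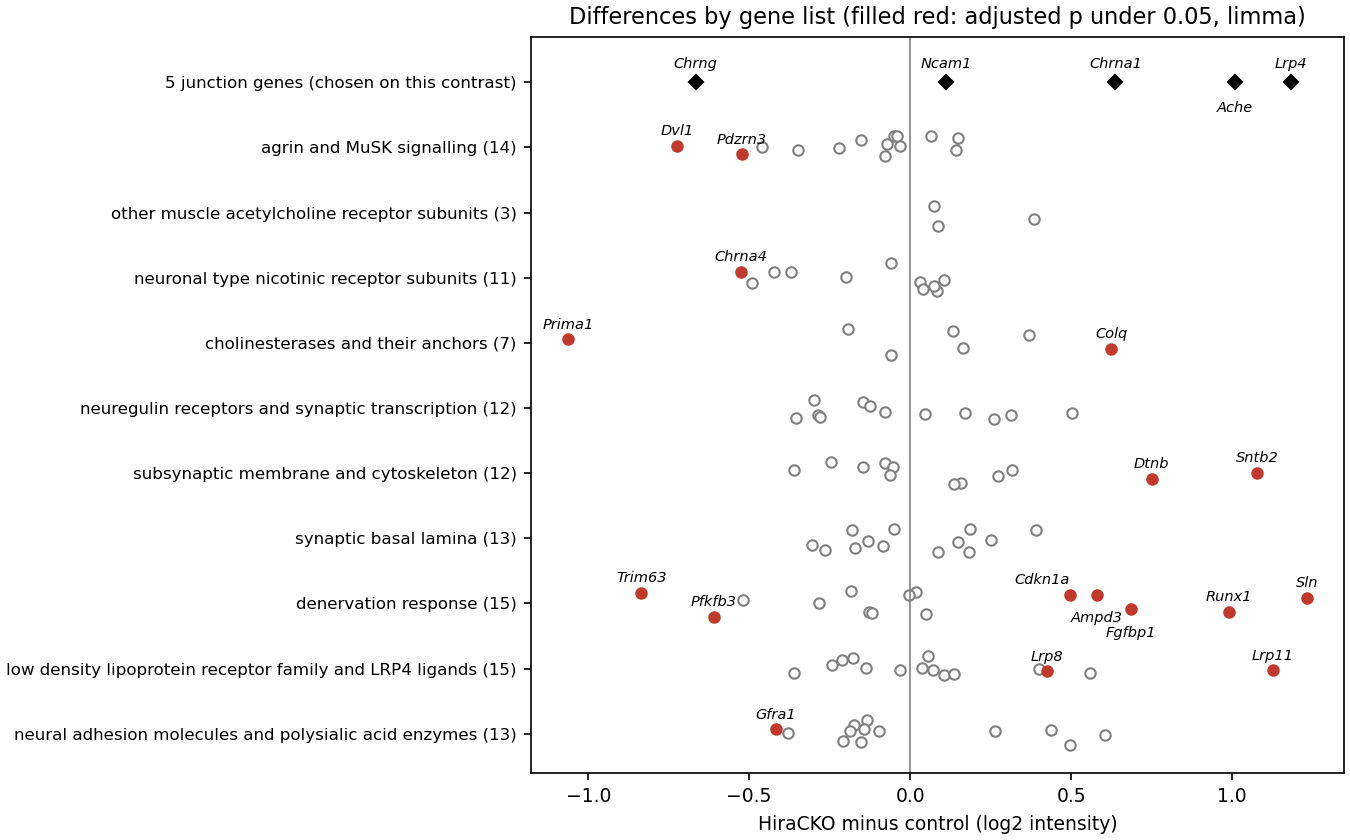
HiraCKO minus control difference (log2 intensity) of the 5 junction genes (diamonds, not tested) and of the measured genes of each list (circles, filled where the limma adjusted p is under 0.05). The filled circles lie on both sides of 0 (10 higher and 7 lower), and no other receptor subunit of muscle is filled.

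**Figure D4:**
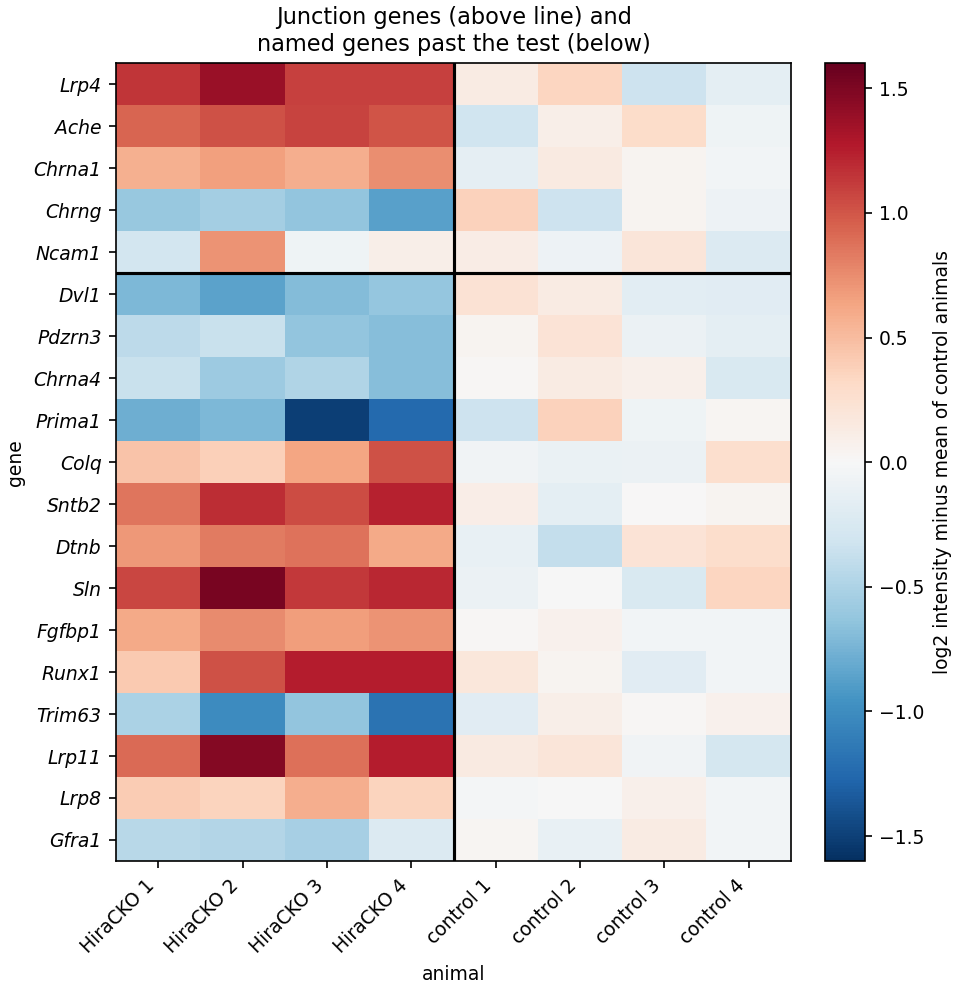
Log2 intensity of each animal minus the mean of control animals, HiraCKO columns left of control columns, for the 5 junction genes (above the line) and the named list genes past the test (below). Lrp4, Ache and Chrna1 are positive in all HiraCKO animals, Chrng is negative, and Ncam1 is clearly positive in HiraCKO animal 2 alone.

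Signal from other cells was read from marker lists. Over all 17742 genes, 4264 had an unadjusted p under 0.05 between the groups in limma, and the counts below stand beside that. Of 10 measured Schwann cell markers, 0 were higher and 2 lower in HiraCKO, S100b by 0.78 ± 0.18 and Mal by 0.66 ± 0.17 (SE, log2; limma adjusted p = 0.0233 and 0.0334), with 6 at an unadjusted p under 0.05 and a list median of -0.40. Of the Schwann cell markers that did not pass, Mbp was at -0.76, Ncmap at -0.48, Pmp22 at -0.45 and Cnp at -0.35 (log2). Sox10 was at -0.08, Mag at -0.04, Ngfr at 0.14 and Egr2 at 0.29. The summed intensity of the 10 markers ranged over 32860 to 38520 in HiraCKO animals and 36370 to 50830 in control animals, so the sums overlapped. Each such sum leans on its brightest markers, here Pmp22 (12950 in HiraCKO, 17648 in control), while S100b was at 338 and 581. Of 11 motor axon markers none passed (1 at an unadjusted p under 0.05), with sums of 4632 to 5557 in HiraCKO and 5136 to 5290 in control, and Chat, Nefl, Nefm and Isl1 were dim in both groups. The RNA came from muscle, which does not hold the cell bodies of motor neurons, so innervation cannot be read from this list. Of 6 satellite cell markers 1 was lower, Calcr, with sums of 17780 to 24790 in HiraCKO and 24670 to 25960 in control. That sum was mostly Cd34 (13154 in HiraCKO, 16489 in control), while Calcr was at 74.2 and 166, and Pax7 differed by 0.24 (log2). Of 9 fibre markers, Tnnt1, the slow troponin T, was higher by 1.27 ± 0.24 (adjusted p = 0.00806), and the sums, 2118000 to 3045000 in HiraCKO and 2536000 to 3253000 in control, overlapped. Of 7 endothelial markers 3 were lower and 5 had an unadjusted p under 0.05, with a median of -0.52 and sums of 30200 to 38270 in HiraCKO and 46960 to 61320 in control. Of 7 macrophage markers 1 was lower, Cd163 by 0.93 ± 0.26 (adjusted p = 0.0490), with a list median of 0.11 and 2 at an unadjusted p under 0.05. Among those that did not pass, Cd68 was at 1.01 ± 0.57 (SD 1.51 in HiraCKO animals), Itgam at 0.60 ± 0.25 and Adgre1 at 0.48 ± 0.34. Cd14 was at 0.11, Csf1r at 0.03 and Mrc1 at -0.006 (log2). The macrophage sums were 8859 to 22180 in HiraCKO and 8490 to 14470 in control. Of 6 fibroblast markers 0 passed (2 at an unadjusted p under 0.05 in limma), with a median of 0.06 and sums of 132800 to 250000 in HiraCKO and 146200 to 222100 in control. The lower Schwann and endothelial markers went with the same genotype as the junction gene differences, and their part in those differences was not tested.

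The row for Hira itself differed by -0.15 ± 0.17 (SE, log2; limma adjusted p = 0.623). Where its probe lies relative to the deleted part is not stated in the labels, and both groups carry an allele that Cre can recombine, so it does not check the labels. All 24 arrays had a median of 626.429, and between 0% and 5.37% of an array's values were at or below 0.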

How the data were processed

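Trizol-extracted total RNA of the tibialis anterior was hybridised 3 times per animal, per the labels' protocols (the labels name both Cy3 and Cy5 as dye). The deposited table holds linear probe intensity values, which the authors had scaled to a common median of 626.429; how they were scanned, corrected and scaled is not given in the sources used. Values under 38.8, the 5th percentile of all values, were set to it, log2 was taken, and hybridisations were averaged per animal. Of 20377 rows with a symbol, 18213 matched a current RefSeq symbol (GRCm38.p6), 2126 a synonym and 38 neither; the brightest row stood for each of 17742 genes. limma 3.58.1 in R 4.3.3 (lmFit, eBayes) compared 4 with 4 animals, with Benjamini-Hochberg adjustment over all genes and a threshold of 0.05; the fit was tested on simulated data. The number of animals limits precision. p-values measure the spread between animals.

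The 5 genes and all lists were chosen with earlier results of these data known. Named genes were up to 4 passing genes per list by smallest p (2 where none passed), and the 2 most alike genes per member. Agrn, Musk, Dok7, Rapsn, Chrne, Bche, Cdkn1a, Ampd3, Pfkfb3 and the marker genes were named after their values were seen. The scaling, the floor, row choice, the filter on dim rows, the series of animal numbers and leaving out animals or hybridisations were varied. Animal numbers 1 to 4 follow deposit order and pair nothing.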

Additional observations from a re-analysis of the deposited data

Results flagged for a closer look

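In 76 groups of 4 animals looked at, 3 held an animal set far apart from the others (its gap to the nearest one took most of the group's range, past the 95% limit of Dixon's test). Chance gives about 1 in 20 such groups. Colq was high in control animal 4 (8.78, log2, against 8.40 to 8.46 in the other control animals). Fxr2 stood apart in HiraCKO animal 2 (13.38), the animal in which Lrp4 was also highest. Fxr2 was chosen as the gene most like Lrp4, so the shared animal follows from that choice and is no separate result. Etv1, dim in both groups, was above the floor in HiraCKO animal 4 (5.46) and at the floor in the other 3 HiraCKO animals.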

How the results depend on the processing

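Over 26 alternatives the HiraCKO minus control difference ranged over 1.03 to 1.34 for Lrp4 (log2), 0.90 to 1.11 for Ache, 0.55 to 0.72 for Chrna1 and -0.78 to -0.54 for Chrng. The genes were chosen on this contrast, so these ranges describe it and do not test it. Median centring, the higher floor, the filter on dim rows, row choice, the series block and the random blocks left these differences unchanged. With a shared median, levels above the floor, 1 row per gene and balanced groups, those settings could not move them. Ncam1 lay between -0.091 (without HiraCKO animal 2, the 1 reversal) and 0.247 (without HiraCKO animal 1). The list genes called were 17 higher under quantile normalization and 18 under cyclic loess, against 10, while calls higher over all genes were 1240 and 1309, against 759. They were 0 higher and 0 lower in the 6400s alone and 7 and 2 in the 6900s alone, with fewer animals in each. With the hybridisation number as a replicate block and the animal as a random block, 15 were higher and 9 lower, with Lrp8 and Gfra1 lost and Etv5, Lamb2 and Lama4 gained among the named genes; hybridisation numbers share a label, not a stated day, and no animals are paired. Leaving out 1 animal or hybridisation gave 6 to 11 higher (6 without HiraCKO animal 3) and 4 to 9 lower (4 without control animal 1 or HiraCKO animal 3).

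The interaction of Chrna1 turned to -0.026 under quantile normalization and -0.076 under cyclic loess. Leaving out 1 animal, interactions ranged over -0.364 to 0.039 (Ache), -0.095 to 0.194 (Chrna1), -0.484 to 0.219 (Chrng) and -0.675 to 0.338 (Ncam1). Series differences ranged over -0.034 to 0.081 (Chrna1), -0.261 to 0.020 (Chrng) and -0.302 to 0.103 (Ncam1). Chrnd ranged over -0.034 to 0.178 and was 0.329 in the 6400s and -0.153 in the 6900s alone, and Chrnb1 was -0.005 in the 6400s and 0.776 in the 6900s alone (adjusted p = 0.0539). No interaction or series term of any junction gene passed in any of 13 settings (smallest adjusted p = 0.109). Apart from fewer animals, the cause of these shifts was not tested.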
